A study of Mus musculus with 20 samples.

Results

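Described here are 1306 RAD21 peaks at promoters, called after CTCF degradation and not in WT cells, at places where MAZ was also called. They were chosen by a rule on the peak lists: a RAD21 peak of ΔCTCF cells that overlapped no RAD21 peak of WT cells by even 1 bp, overlapped a MAZ peak of ΔCTCF cells, and had its summit within 1 kb of a transcript start in GENCODE vM21 basic (mouse build mm10). They made up 7.29% of the 17912 RAD21 peaks of ΔCTCF and 13.0% of the 10019 that were re-localized, that is, absent from the WT list. The rule used the RAD21 peaks of WT and ΔCTCF and the MAZ peaks of ΔCTCF, so values from those lists are given as description only. The fate of the peaks in the other RAD21 lists, their side of the start and their sequence were not named in the rule. The required MAZ peak still bears on side and sequence. The required lack of a WT peak bears on the fate in ΔMAZ, whose cells also had no auxin.

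Cohesin, of which RAD21 is one protein, encircles DNA and extrudes it into loops, and CTCF is the zinc finger protein best known for halting cohesin at oriented sites. MAZ is a zinc finger protein that binds G-rich sequence, often in promoters, and has been described as an insulator beside CTCF. Promoters are also places where cohesin can be loaded or slowed by the transcription machinery.

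All cells were E14 mouse embryonic stem cells, grown with LIF and inhibitors of MEK and GSK3, in which CTCF carries an auxin-inducible degron tag. WT cells had this tag and no auxin, ΔCTCF cells had auxin for 2 days, ΔMAZ cells had a Maz knockout and no auxin, and ΔCTCF/ΔMAZ cells had the knockout and auxin for 2 days. The knockout libraries came from 1 clone, B2, so clone and genotype cannot be told apart. Peak lists of ChIP-seq (sequencing of the DNA held by an antibody) were used for CTCF, MAZ and RAD21, 1 list for each antibody in each of the 4 conditions, so no difference below has a replicate and no p-value is given. Intervals are 95% (Wilson for a share, Newcombe for a difference), cover counting error only, and were not adjusted for the 107 differences in share that were computed.

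The CTCF list fell from 26394 peaks in WT to 2381 in ΔCTCF and the MAZ list from 6265 peaks in WT to 33 in ΔMAZ and 33 in ΔCTCF/ΔMAZ, in the directions that the labels give. The RAD21 lists held 20371 (WT), 17912 (ΔCTCF), 20872 (ΔMAZ) and 6400 (ΔCTCF/ΔMAZ) peaks. An index of read depth, the lowest background in a list divided by its narrowest peak, was higher in RAD21 ΔCTCF than in the other RAD21 libraries: 2.18 times that of WT, 1.69 times that of ΔMAZ and 2.34 times that of ΔCTCF/ΔMAZ. Depth therefore bears on both ends of what follows. If each of the 1306 peaks were read at the depth of RAD21 WT, 819 of them (62.7%) would be expected to pass the lowest p-value of the WT list, and how many of the rest were missed in WT for want of depth was not tested.

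The RAD21 summit with 50 bases on either side is shown for strong peaks of each fate, and for Dnajb12, one of the loci the study displayed. They are read from GRCm38 in the direction of the gene of the nearest start, and capitals mark the MAZ core GGGAGGG or its reverse complement. Windows with more than 30 bases of annotated UTR were left out. The first set was called in neither knockout library.

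Xpo6 (chr7:126200486-126200586, minus strand): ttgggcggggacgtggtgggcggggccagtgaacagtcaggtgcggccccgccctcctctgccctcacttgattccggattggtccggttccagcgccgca
Zdhhc21 (chr4:82859734-82859834, minus strand): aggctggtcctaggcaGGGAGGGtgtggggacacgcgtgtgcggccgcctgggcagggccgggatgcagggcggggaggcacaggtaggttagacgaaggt
Fignl1 (chr11:11809234-11809334, minus strand): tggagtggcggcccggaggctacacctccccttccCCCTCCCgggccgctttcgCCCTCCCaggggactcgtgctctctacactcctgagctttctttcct
Dnajb12 (chr10:59879440-59879540, plus strand): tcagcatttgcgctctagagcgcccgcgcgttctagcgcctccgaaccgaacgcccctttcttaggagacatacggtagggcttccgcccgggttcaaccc

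The next peaks were called in RAD21 ΔMAZ only.

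Psme4 (chr11:30771593-30771693, plus strand): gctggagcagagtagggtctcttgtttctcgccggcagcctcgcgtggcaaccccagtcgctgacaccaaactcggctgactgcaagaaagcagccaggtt
B230369F24Rik (chr1:178318419-178318519, minus strand): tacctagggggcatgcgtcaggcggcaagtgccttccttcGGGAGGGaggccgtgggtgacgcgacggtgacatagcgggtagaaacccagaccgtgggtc

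The next were called in RAD21 ΔCTCF/ΔMAZ only.

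Gm48525 (chr12:19175811-19175911, plus strand): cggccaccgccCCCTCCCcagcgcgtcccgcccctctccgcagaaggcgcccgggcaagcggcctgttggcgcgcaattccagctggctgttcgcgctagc
Lrp6 (chr6:134567280-134567380, minus strand): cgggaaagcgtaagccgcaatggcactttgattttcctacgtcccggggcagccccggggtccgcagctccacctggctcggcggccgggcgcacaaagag

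The last was called in both.

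Scaf11 (chr15:96460973-96461073, minus strand): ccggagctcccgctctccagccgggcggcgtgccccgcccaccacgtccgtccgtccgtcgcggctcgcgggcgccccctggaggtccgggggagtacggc

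The window of Xpo6 held no MAZ core but 3 copies of the GC box GGGCGGG on either strand, that of Fignl1 held 2 MAZ cores, and those of Psme4, Lrp6 and Dnajb12 held neither motif. The window of Scaf11 held no MAZ core and 1 GC box.

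RAD21 summits at these promoters lay close to the start and more often before it than after it. Of the 1306, 797 (61.0%, 58.4 to 63.6) were upstream of the nearest start, 502 (38.4%) downstream and 7 on the start base itself. The median signed distance was 33 bp upstream (−33), the median absolute distance was 104 bp, 48.6% lay within 100 bp and 77.4% within 250 bp. Re-localized RAD21 promoter peaks without a MAZ peak, 2245 in all, were upstream in 52.7%, so the MAZ-bound peaks were upstream more often by 8.38 percentage points (5.0 to 11.7). They were also nearer: 42.1% of the peaks without MAZ lay within 100 bp, a difference of 6.48 points (3.09 to 9.87). Where transcript starts lay on 1 strand only, 65.6% of 1005 MAZ-bound peaks were upstream, 9.61 points (5.83 to 13.3) more than without MAZ. Promoter peaks with MAZ that RAD21 already held in WT, 228 in all, were upstream more often still, at 75.4%, with a difference of −14.4 points (−20.2 to −7.89) for the re-localized set. By annotation, 520 of the 1306 summits (39.8%) were outside genes, 341 (26.1%) in an untranslated exon, 320 (24.5%) in an intron, 68 in a noncoding exon and 57 (4.36%) in a coding exon.

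**Figure D1:**
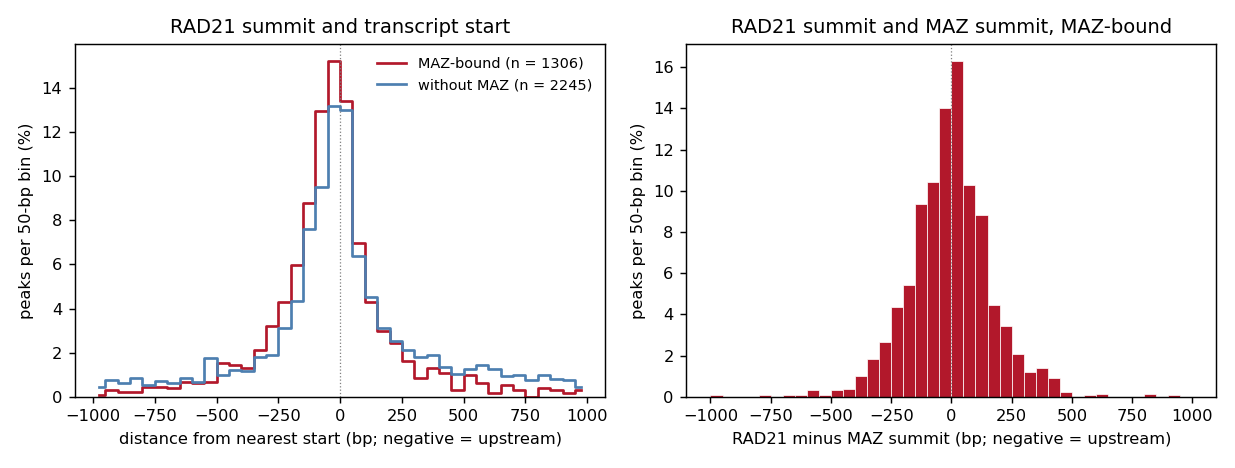
Left, share of re-localized RAD21 promoter peaks of ΔCTCF (y, percent per 50-bp bin) by distance of the summit from the nearest transcript start (x, bp, negative is upstream), with MAZ (red, n = 1306) and without (blue, n = 2245). Right, distance of the RAD21 summit from the MAZ summit at the 1306 MAZ-bound peaks. The red curve exceeds the blue one just upstream of the start, and the right panel is centred near 0 with a median of −2 bp.

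MAZ and RAD21 summits coincided in their centre but not base for base. In the direction of transcription the RAD21 summit lay a median of −2 bp from the MAZ summit, with the middle of the distribution (quartiles) from −107 to 88.0 bp, and 659 of the 1306 (50.5%) were upstream of it. The median absolute offset was 97.5 bp, and 672 (51.5%) lay within 100 bp. The overlap with the MAZ peak had a median of 235 bp, and in 24 peaks it was 20 bp or less. The 1306 RAD21 peaks used 1278 MAZ peaks, since 56 RAD21 peaks shared their MAZ peak with another.

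MAZ was called at most of these promoters while CTCF was still present. A MAZ peak of WT overlapped 918 (70.3%, 67.8 to 72.7), against 11.1% of all 17912 RAD21 peaks of ΔCTCF, a background that the choice of MAZ-bound peaks makes low by comparison. Among re-localized peaks with MAZ away from promoters the share was 53.0%, so the promoter peaks exceeded them by 17.3 points (12.2 to 22.4). No MAZ peak of ΔMAZ or ΔCTCF/ΔMAZ overlapped any of the 1306. A CTCF peak of WT overlapped 37 (2.83%, 2.06 to 3.88, or 4.93% when a gap of up to 500 bp counts as overlap), against 41.1% of all RAD21 peaks of ΔCTCF, 3.79% of the promoter peaks without MAZ and 52.6% of the MAZ promoters where RAD21 was held in WT. The distance from the summit to the nearest CTCF summit of WT had a median of 16308 bp, against 15968 bp for promoter peaks without MAZ.

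Of 4960 MAZ peaks of ΔCTCF within 1 kb of a start, 1273 were partners of these RAD21 peaks and 3170 overlapped no RAD21 peak in any condition. The values that follow are for all 1278 MAZ peaks that the set overlapped, the 1273 among them. They had a median fold enrichment (read pileup over local background) of 6.44 and those without RAD21 of 5.99. More of the 1278 were called in MAZ WT, 72.1% against 65.0%, a difference of 7.16 points (4.15 to 10.1). Their summits were upstream of the nearest start in 62.4% and 59.5%, and the interval of that difference, −0.202 to 6.11 points, included 0. Around the MAZ summit itself, the GC box was more frequent in the 1278 MAZ peaks that the RAD21 set overlapped than in those without RAD21, by 5.41 points (2.18 to 8.63), and the MAZ core less frequent, by 3.27 points (difference −3.27, −6.03 to −0.416).

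In the lists as deposited, most of these peaks were called in neither RAD21 list of knockout cells. A RAD21 peak of ΔMAZ overlapped 154 of 1306 (11.8%, 10.2 to 13.7), against 47.4% of all RAD21 peaks of ΔCTCF, and a RAD21 peak of ΔCTCF/ΔMAZ overlapped 220 (16.8%, 14.9 to 19.0), against 29.5%. In all, 987 (75.6%, 73.2 to 77.8) were called in neither, against 47.7% of all peaks, 99 in ΔMAZ only, 165 in ΔCTCF/ΔMAZ only and 55 in both. The background is high because it includes the peaks that RAD21 held in WT, so the closer comparison is with other re-localized peaks, of which 81.7% were called in neither over the whole set of 10019. The share was 80.6% for promoter peaks without MAZ, so that of the MAZ-bound peaks was lower (difference −5.0 points, −7.88 to −2.19), and 69.7% for MAZ-bound peaks away from promoters, against which it was higher (5.92 points, 1.26 to 10.8). With every RAD21 list cut to its 6400 strongest peaks, the rule chose a set anew, of 245 peaks. Of these, 5.31% were called in ΔMAZ, 51% in ΔCTCF/ΔMAZ and 47.3% in neither, so that those in neither were not the majority. The WT list was cut too, so peaks that overlap a WT peak of the full list can enter this set. Its shares are therefore not the fate of the 1306.

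Against re-localized promoter peaks without MAZ, the MAZ-bound peaks were called in ΔCTCF/ΔMAZ more often. The shares were 16.8% and 12.3%, a difference of 4.55 points (2.15 to 7.04), while with RAD21 lists of equal length the difference was 4.35 points and its interval, −3.61 to 12.2, included 0. The set without MAZ was not free of MAZ nearby: 248 of the 2245 had a MAZ ΔCTCF peak within 500 bp, and 256 (11.4%, 10.2 to 12.8) overlapped a MAZ peak of WT. In ΔMAZ they were 11.8% and 10.3%, and the interval of the difference, −0.651 to 3.67 points, included 0; the difference was −9.82 points (−14.3 to −5.03) with RAD21 lists of equal length. Within strength groups (the RAD21 ΔCTCF list cut into 3 equal parts by fold), the ΔCTCF/ΔMAZ difference was 2.24 points (−0.477 to 5.20) in the weakest, 4.08 (0.113 to 8.23) in the middle and 6.84 (−4.54 to 18.1) in the strongest, and the interval was clear of 0 in the middle group alone. MAZ-bound peaks were wider, with a median of 322 bp against 280 bp, and stronger, with a median fold of 4.29 against 4.19, and the part of width in the difference was not tested. With 50% reciprocal overlap, which also left fewer peaks in the set, the difference was 2.88 points (0.658 to 5.38). With peaks of −log10 q of at least 5 alone in every list the difference was 2.01 points (−0.958 to 5.26).

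Against re-localized MAZ-bound peaks away from promoters, 468 in all, the promoter peaks were called in ΔMAZ less often, 11.8% against 18.8%, a difference of −7.01 points (−11.1 to −3.24). In ΔCTCF/ΔMAZ the shares were 16.8% and 19.2% and the interval, −6.66 to 1.55 points, included 0. The distal peaks were stronger, with a median fold of 4.53, and the part of strength in the difference was not tested. In the strength groups defined above, from the weakest to the strongest, 11.5%, 16.9% and 40.5% of the distal peaks and 6.69%, 12% and 36.2% of the promoter peaks were called in ΔMAZ. The distal share was thus the higher in each group. The intervals of the 2 shares overlapped in each group, with 30.4 to 51.5 and 28.4 to 44.7 in the strongest. In the weakest group the distal interval began at 7.67 and the promoter interval ended at 8.89. Such overlap does not tell whether a difference is clear of 0. No interval of the difference between distal and promoter peaks was computed within these groups. MAZ promoters where RAD21 was held in WT were called in ΔMAZ in 77.2% and in ΔCTCF/ΔMAZ in 55.3%.

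The shares of re-localized MAZ-bound promoter peaks found again were higher in the stronger groups, and so were those of promoter peaks without MAZ and of all RAD21 peaks. The shares called in ΔMAZ just given stood beside 6.20%, 12% and 36.1% for promoter peaks without MAZ and 18.7%, 38.2% and 85.5% for all RAD21 peaks of ΔCTCF. MAZ promoters where RAD21 was held in WT had no such order in ΔMAZ, with 71.7% of 46 (57.5 to 82.7), 63.9% of 72 (52.4 to 74.0) and 88.2% of 110. Their shares in ΔCTCF/ΔMAZ did rise with strength, at 26.1%, 41.7% and 76.4%. In ΔCTCF/ΔMAZ the MAZ-bound shares were 10.6%, 18.4% and 41.5% from the weakest to the strongest group, against 8.34%, 14.3% and 34.7% without MAZ and 7.50%, 16.4% and 64.6% of all. The strongest group held 130 of the 1306, and 56 of them (43.1%) were called in neither, against 45.6% without MAZ and 11.2% of all. The fold enrichment in ΔCTCF had a median of 4.22 in peaks called in neither, 4.74 in ΔMAZ only, 4.70 in ΔCTCF/ΔMAZ only and 5.72 in both, while the MAZ fold at the same places was 6.44, 6.41, 6.58 and 6.94.

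**Figure D2:**
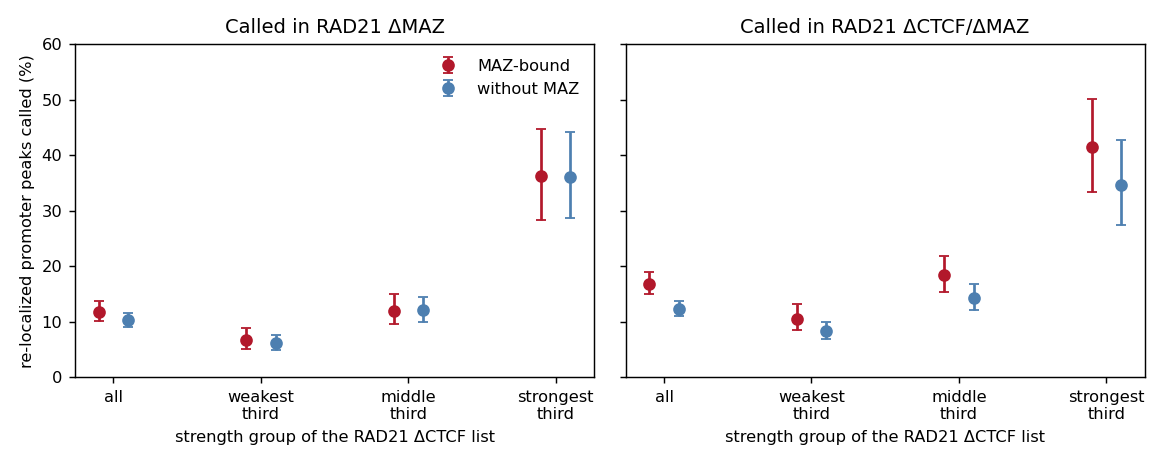
Share of re-localized RAD21 promoter peaks (y, percent, with Wilson 95% intervals as bars) that overlapped a RAD21 peak of ΔMAZ (left) or ΔCTCF/ΔMAZ (right), for all peaks and for the 3 strength groups of the RAD21 ΔCTCF list (x), with MAZ (red) and without (blue). Shares rise with strength, from 10.6% to 41.5% for MAZ-bound peaks in ΔCTCF/ΔMAZ, and the red points sit above the blue ones in every group on the right.

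Lower depth would be expected to remove part of the set. Reading each peak at the depth of the other library, with its own pileup and background, 1030 of 1306 (78.9%) would be expected in ΔMAZ and 702 (53.8%) in ΔCTCF/ΔMAZ, where 154 and 220 were called. These expectations come from the values that chose the peaks and are therefore high. For promoter peaks without MAZ they were 77.0% and 50.7%, where 10.3% and 12.3% were called. For all RAD21 peaks of ΔCTCF they were 86.4% and 68.3%, where 47.4% and 29.5% were called, so calls fell short of the expectation in the list as a whole too. For all re-localized peaks they were 79.2% and 54.3%, where 10.4% and 10.8% were called. ΔMAZ cells, like WT cells, had no auxin, and the rule took only peaks not called in WT. Few calls in ΔMAZ are thus partly fixed by the choice, and the shortfall there is no separate result.

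The few peaks at CTCF sites of WT were found again more often than the others of the set. Of all RAD21 peaks of ΔCTCF, 47.4% were called in ΔMAZ and 29.5% in ΔCTCF/ΔMAZ. Of the 37 at CTCF sites, 15 (40.5%) were called in ΔMAZ, against 11% of the other 1269, a difference of 29.6 points (15.3 to 45.6). In ΔCTCF/ΔMAZ 15 (40.5%) were called, against 16.2%, a difference of 24.4 points (10.0 to 40.5). Their median fold in RAD21 ΔCTCF was 4.38, against 4.29. Scaf11, which encodes an SR-related splicing protein, and Mrps16 and Mrps33, of the mitochondrial ribosome, were among the 37 and called in ΔMAZ. Their CTCF WT folds were 20.6, 42.9 and 30.6. Brd7 and Prpf40b, with CTCF WT folds of 27.0 and 12.5, were called in neither knockout library. Rps20 and Zfp41, with 18.6 and 13.2, were called in ΔCTCF/ΔMAZ only.

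A MAZ peak in WT did not separate the fates at these counts. In ΔMAZ 11.9% of peaks with a MAZ WT peak and 11.6% of those without were called (interval of the difference −3.78 to 3.88 points), and in ΔCTCF/ΔMAZ 16.0% and 18.8% (−7.55 to 1.57). A MAZ core near the summit did not separate fates either, with 14.6% called in ΔCTCF/ΔMAZ when present and 17.3% when absent (−7.39 to 3.02). Peaks upstream of the start were called in ΔCTCF/ΔMAZ in 18.6% and the others in 14.1%, a difference of 4.42 points (0.259 to 8.39), and in ΔMAZ in 13.0% and 9.82% (−0.387 to 6.63). Median folds were 4.32 upstream and 4.29 elsewhere.

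The strongest peaks of each fate were picked by their RAD21 ΔCTCF fold and are given as examples, with nothing read from how strong they are. Fold enrichment in one library is not on the scale of another, so the values below are set side by side without a ratio. Among those called in neither, Xpo6, an exportin gene, at chr7:126200387-126200745, had a RAD21 ΔCTCF fold of 9.05. Zdhhc21, a palmitoyltransferase gene, and Fignl1, of homologous recombination, both had 7.62, and Rnf141 and 1700064H15Rik followed with 7.57 and 7.38. None of these had a peak in any of the other RAD21 lists. At Xpo6 the chance of passing was 99.8% at the depth of ΔCTCF/ΔMAZ and higher at that of ΔMAZ. That chance is computed from the same ΔCTCF signal by which the peak was picked, so it is high by the choice and nothing is read from it. The RAD21 summit there lay 35 bp upstream of the start and 41 bp upstream of the MAZ summit.

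Among those called in ΔMAZ only, Psme4, which encodes a proteasome activator, had a fold of 8.11 in ΔCTCF and 5.15 in ΔMAZ. Trim24, a nuclear receptor coregulator gene, had 7.37 and 5.62. B230369F24Rik had 7.63 and 4.74, and Mir8120 had 6.96 and 5.02. Among those called in ΔCTCF/ΔMAZ only, Gm48525 had 9.05 in ΔCTCF and 8.34 in ΔCTCF/ΔMAZ. Lrp6, a Wnt co-receptor gene, had 9.05 and 7.32. Hnrnph3, an RNA-binding protein gene, had 7.86 and 5.39, and Gm34250 had 7.62 and 4.80. Axin2, a Wnt target that encodes an inhibitor of the pathway, had 7.62 and 5.95. Lrp6 and Axin2 act in the same pathway but were named for strength alone.

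Among those called in both, Gm24407 had folds of 9.29 (ΔCTCF), 3.97 (ΔMAZ) and 9.61 (ΔCTCF/ΔMAZ). Scaf11, at a CTCF site of WT, had 8.58, 8.88 and 9.61 in the same order. Magi1, a junction scaffold gene, had 8.21, 5.14 and 6.70. A4galt, a glycosyltransferase gene, had 8.03, 5.73 and 6.34, and Golga5, of the Golgi, had 7.41, 4.80 and 4.38. Gm24407 is an snRNA gene, one of 14 such nearest starts, and reads of multicopy genes may be shared with their copies.

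**Figure D3:**
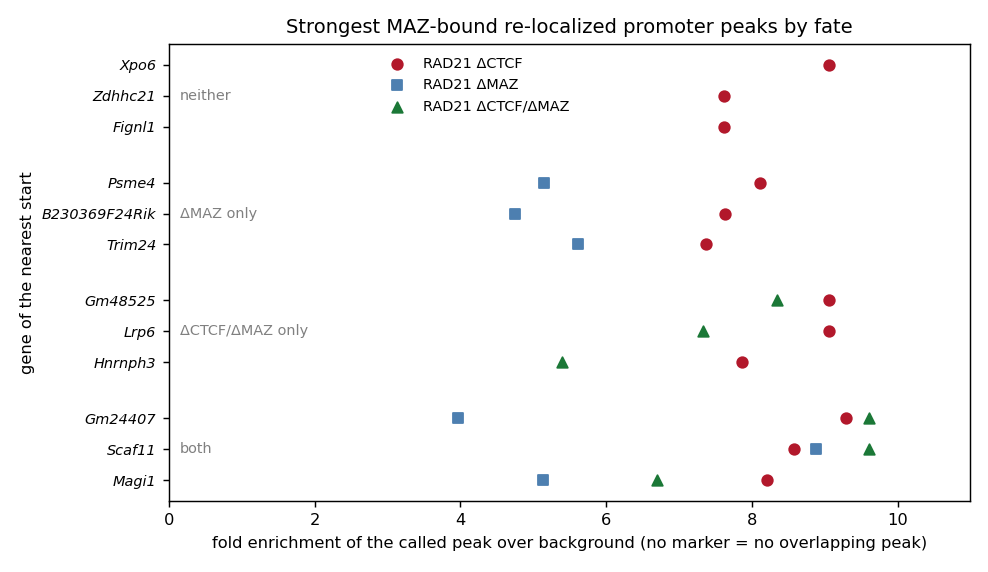
Fold enrichment of the called RAD21 peak over background (x, linear) in ΔCTCF (red circles), ΔMAZ (blue squares) and ΔCTCF/ΔMAZ (green triangles) at the 3 strongest MAZ-bound re-localized promoter peaks of each fate, named by the gene of the nearest start (y). A missing marker means that no peak overlapped. ΔCTCF folds ran from 7.37 to 9.29 and overlap between the fates.

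At the loci the study displayed, chosen on these samples, the peak by Nat9 and Tmem104 had a RAD21 ΔCTCF fold of 6.12 and that of Dnajb12, which encodes a chaperone partner, 6.49. Both were called in neither knockout library. The chance of passing at the depth of ΔCTCF/ΔMAZ, computed from the ΔCTCF signal of these chosen peaks and therefore high, was 95.8% and 94.4%. The first had starts on both strands within 1 kb, lay 10 bp upstream of the nearest, that of Tmem104, and had no MAZ peak in WT, while Dnajb12 had one, with a fold of 5.73.

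For peaks found again, which the overlap itself keeps near their first position, the absolute shift of the summit had a median of 83.5 bp for the 154 in ΔMAZ and 80.0 bp for the 220 in ΔCTCF/ΔMAZ, and the signed shift along the gene a median of −7.5 and 4.5 bp. Within their own list the refound peaks ranked low, at a median percentile by fold of 10.5 in ΔMAZ and 26.7 in ΔCTCF/ΔMAZ. In the ΔCTCF list the same peaks stood at 50.9 and 50.0. The lists differ in length and in median fold, which was 9.74 in ΔMAZ, 6.52 in ΔCTCF/ΔMAZ and 4.85 in ΔCTCF. The ranks therefore do not tell whether the peaks themselves were weaker.

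The genes were mostly protein-coding. Nearest starts belonged to 1266 genes, 36 of them with more than 1 peak, and 1151 of the 1306 (88.1%) were those of protein-coding genes, 7.86 points (5.41 to 10.2) more than for promoter peaks without MAZ. Antisense genes gave 37, lincRNA genes 37 and bidirectional promoter lncRNAs 17. Starts lay on both strands within 1 kb of 301 summits (23.0%), against 21.6% without MAZ (difference 1.44 points, −1.37 to 4.33), or 8.4% if protein-coding transcripts alone are counted. Of the 301, 111 lay between a minus-strand start and a plus-strand start that point away from each other. The peaks were spread over the 19 autosomes, and none lay on X, which held 12 of the 2245 promoter peaks without MAZ.

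To place the genes by function, 18 gene lists were counted against all protein-coding genes, of which 1116 of 21924 (5.09%) had such a peak at their nearest start and 27.0% of the 4140 with a MAZ ΔCTCF promoter peak. Among pluripotency genes 5 of 19 had one: Klf2 was called in both knockout libraries, with RAD21 folds of 6.46 (ΔCTCF), 4.35 (ΔMAZ) and 7.72 (ΔCTCF/ΔMAZ), and Klf4, Nr5a2, Sox2 and Nanog in neither, the first 3 of these with ΔCTCF folds of 5.96, 4.53 and 4.01. All are transcription factor genes of the stem cell state. Of 7 pluripotency genes with a MAZ promoter peak these were 5.

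Genes of cohesin and boundaries gave 3 of 19. Rad21 itself had a peak with a fold of 4.29, called again in ΔCTCF/ΔMAZ with 4.64, Stag1, another cohesin subunit, had 3.67 and was called in neither, and Maz had 3 peaks, with folds of 5.0, 4.05 and 3.10, all called in neither. The Maz locus is the one edited in the knockout clone, and where the edit lies relative to these peaks was not examined here. Maz, Axin2, Rnf44 and Pdgfa were the 4 genes with 3 peaks.

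For the fates of genes by list, the measure to hold them against is that of all protein-coding genes with such a peak, 841 of 1116 of which were called in neither, and the small counts that follow are given as description. Chromatin enzymes gave 5 of 65, all called in neither, with Kmt2b, a histone H3K4 methyltransferase gene, at a fold of 6.75 and Kdm2b, Brd7 and Hdac7 at 5.0, 4.38 and 4.05. Cytosolic ribosomal proteins gave 3 of 84, Rps21, Rps19 and Rps20, with ΔCTCF folds of 5.96, 5.76 and 5.0, all called in ΔCTCF/ΔMAZ, with 4.46, 5.27 and 6.87, and none in ΔMAZ. A re-localized promoter peak without MAZ was found at 15 of the 84 (17.9%), against 7.76% of all protein-coding genes, and the lists ran from 0 of 19 for cohesin and boundaries to 11 of 46 for complex I. With MAZ, mitochondrial ribosomal proteins gave 5 of 78, of which 2 were called in ΔMAZ, both at CTCF sites, and 3 in neither.

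For the machinery of transcription and RNA, RNA polymerase subunits gave 3 of 29, all called in neither, with Polr2a, the largest subunit of polymerase II, at 4.43, Mediator gave 1 of 30, Med22, and splicing factors 5 of 45, with Srsf1 at 5.24 called in neither and Srsf7 at 4.43 called in ΔCTCF/ΔMAZ. Translation factors gave 5 of 68, with Eif3d at 6.96 called in ΔMAZ at 6.13 and Eef1a1 at 5.0 in neither. Nuclear transport gave 5 of 44 and the proteasome 5 of 50, led by Xpo6 and Psme4. Ubiquitin enzymes gave 11 of 93, of which 7 were called in neither, 3 in ΔMAZ and 1 in ΔCTCF/ΔMAZ, genes with symbols in Cdk, Ccn and Cdc 7 of 88, of which 6 were called in neither and not all are cell cycle genes (Cdc42se2 and Cdc37l1 are not), and DNA replication genes 3 of 30. Zinc finger genes gave 21 of 394, 19 of them called in neither, with Zfp41 at 7.47 called in ΔCTCF/ΔMAZ at 9.15. Complex I gave 1 of 46, replication-dependent histones 2 of 67 and Hox genes 2 of 39, Hoxc13 with folds of 7.09, 6.15 and 10.5 in ΔCTCF, ΔMAZ and ΔCTCF/ΔMAZ, and Hoxb9 with 4.19 and, in ΔCTCF/ΔMAZ, 4.58.

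**Figure D4:**
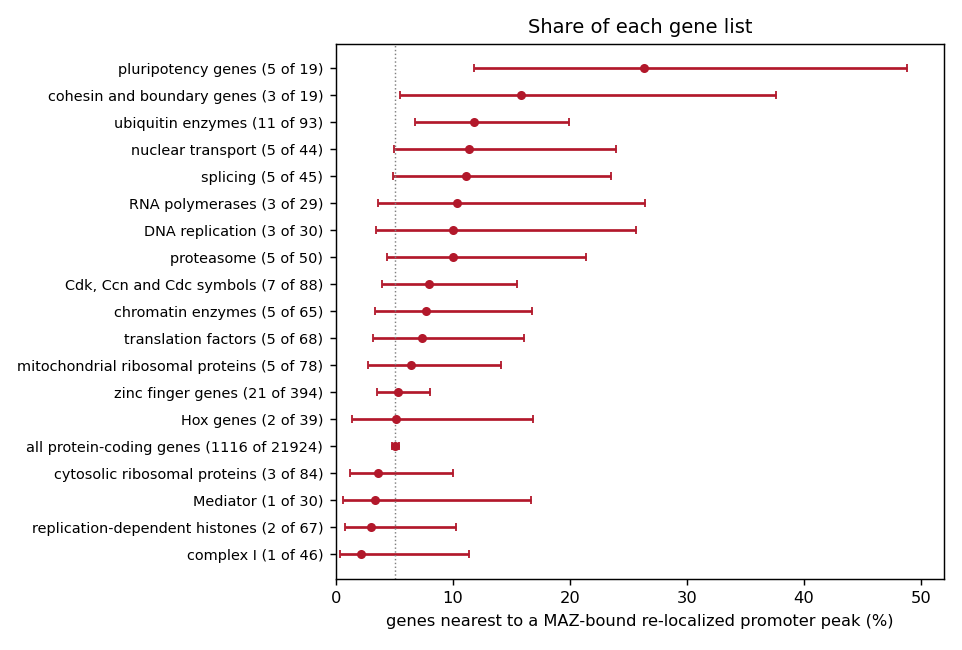
Share of the genes of each list (x, percent, with Wilson 95% intervals) whose nearest start had a MAZ-bound re-localized RAD21 promoter peak, with the counts beside each list name (y). The dotted line is the share of all protein-coding genes, 5.09%, and the intervals of most lists span it.

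The sequence under the summits was rich in GC. Within 50 bp of the RAD21 summit the median GC content was 69.3%, against 61.4% in windows 300 bp to either side, 62.4% at re-localized promoter peaks without MAZ and 59.4% around all 41493 protein-coding starts. Motifs were searched as fixed letters on both strands, and a match is no proof of a bound site. The MAZ core GGGAGGG was found in 219 windows (16.8%, 14.8 to 18.9), against 9.0% of flanking windows, 6.99% of the peaks without MAZ (difference 9.78 points, 7.54 to 12.1) and 9.43% of all starts. The GC box GGGCGGG, recognised by Sp and Klf proteins, was found in 433 (33.2%, 30.7 to 35.8), against 12.3%, 14.0% (difference 19.1 points, 16.2 to 22.1) and 16.4%. The letters of these motifs can overlap with G-rich sequence in general, and 88 windows held both. The MAZ promoters where RAD21 was held in WT had a median GC of 68.3%, with the MAZ core in 14.9% and the GC box in 31.1%, and the intervals of the differences from the re-localized set, −3.69 to 6.42 and −4.75 to 8.24 points, included 0. Re-localized MAZ-bound peaks away from promoters had the core in 19.0% (difference −2.25 points, −6.51 to 1.67) and the GC box in 12.8% (difference 20.3 points, 16.2 to 24.1). At the summits of the 1278 MAZ peaks that the set overlapped the MAZ core was in 24.0% and the GC box in 46.9%, with a median GC of 71.3%. At the summits of MAZ promoter peaks without RAD21 the values were 27.3%, 41.5% and 70.3%, so this sequence is not particular to the set. The core stood on the strand of the gene alone in 107 of the 219 windows and on both strands in 11.

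Other promoter motifs did not set the peaks apart from those without MAZ. The interval of the difference included 0 for the ETS core CCGGAAG (5.21% and 6.68%), the NRF1 core GCATGCG (1.84% and 1.65%), CCAAT (11.1% and 10.8%), the YY1 core AAGATGG (1.61% and 1.74%), TATAAA (0.919% and 1.51%) and the CTCF core, CCACTAG or CAGGGGG (4.44% and 3.21%). TATAAA was found around 4.42% of all starts.

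**Figure D5:**
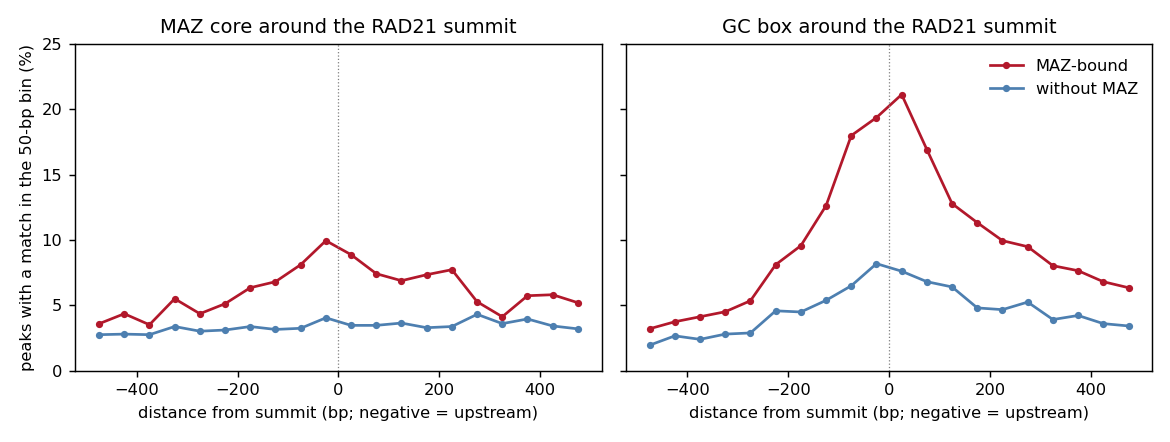
Share of re-localized RAD21 promoter peaks (y, percent) with a match to GGGAGGG (left) or GGGCGGG (right) on either strand in each 50-bp bin by distance from the RAD21 summit (x, bp, negative is upstream), with MAZ (red) and without (blue). The GC box reaches 21.1% of the MAZ-bound peaks in the bin just downstream of the summit, and the MAZ core 9.95% in the bin just upstream.

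At the 1 kb limit of the rule, 11 peaks had their summit in the last 100 bp inside it, and 12 re-localized MAZ-bound peaks lay in the first 100 bp outside. Tsc22d1, at 1000 bp downstream, Alk, at 972 bp upstream, and Axin2, with another peak at 972 bp downstream, were the last inside 1 kb, and Rap2a, Foxn2 and Mpped2, at distances of −1013, 1015 and 1030 bp, were the first outside, with RAD21 ΔCTCF folds of 5.91, 4.53 and 3.81 and of 5.24, 4.05 and 3.57. The highest MAZ ΔCTCF folds, 38.1 at Gm14230, 27.8 at Usp12 and 24.5 at Angel1, stood beside RAD21 folds of 6.05, 3.83 and 3.78, all called in neither. Across the 1306 the rank correlation of the MAZ and RAD21 folds of ΔCTCF was 0.0739, given as a description, since both come from lists that chose the peaks and neighbouring peaks share a MAZ value. RAD21 WT peaks lay within 500 bp of 38.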

How the data were processed

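ChIP-seq of CTCF, MAZ and RAD21 was analysed from 12 peak lists, and 8 further samples were not analysed here. Groups came from the sample titles. The authors aligned to mm10 (Bowtie 2), filtered reads by quality and for duplicates, and called peaks per library with MACS; use of an input control is not given in the sources used here. The authors' signal tracks, scaled by spike-in or, for RAD21, by total reads, were not used. Fold enrichment, as deposited, is the ratio of pileup to background, each with 1 added. The deposited −log10 p-value and −log10 q-value describe each peak, with a q limit of 0.05. The deposited score repeats the q-value and was not used.

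Overlap of 1 bp was counted with code that differed from bedtools 2.31.1 for 0 peaks over 11 pairs of lists and was tested on simulated data (Python 3.11.15, scipy 1.17.1, pandas 2.3.3). Pileup and background were solved from fold and p-value, to within 0.001 for all 17912 RAD21 ΔCTCF peaks, and thinned exactly by the binomial distribution for the lower depths. Transcript starts came from 77237 GENCODE vM21 basic transcripts, and sequence from GRCm38, whose coordinates are those of mm10. Replicates, spike-in scaled signal and expression were not used here.

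The peak set, gene lists and comparisons were chosen with earlier results of these data known. Named peaks were the 5 of highest RAD21 ΔCTCF fold in each fate, those at Nat9 and Dnajb12, up to 4 per gene list, 3 on each side of the 1 kb limit and the 3 of highest MAZ fold. Of these, 1 peak and 1 sequence window are not reported here. Genes with 3 peaks and Nanog were named after their values were seen. The 10 alternatives are given with the closing section.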

Additional observations from a re-analysis of the deposited data

How the results depend on the processing

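Requiring 50% reciprocal overlap left 851 peaks, with 9.52% called in ΔMAZ, 11.3% in ΔCTCF/ΔMAZ and 81.6% in neither, and 65.5% upstream. With −log10 q of at least 5 there were 599, with 12% called in ΔCTCF/ΔMAZ, 80.3% in neither, 66.3% upstream, and a difference from promoter peaks without MAZ of 2.01 points in ΔCTCF/ΔMAZ. Cutting every RAD21 list to its 6400 strongest peaks gave a set of 245 chosen anew, with 5.31% called in ΔMAZ, 51% in ΔCTCF/ΔMAZ and 47.3% in neither. The difference from peaks without MAZ in ΔMAZ reversed to −9.82 points (−14.3 to −5.03). By construction the WT and ΔMAZ lists then keep mostly their strongest sites, so peaks that overlap a WT peak of the full list can enter the set. At the lower depth 819 peaks would be expected at the depth of WT, and weighting gave 21.2% in ΔCTCF/ΔMAZ and 69.9% in neither by the depth index, and 13.7% in ΔMAZ and 21.6% in ΔCTCF/ΔMAZ by background alone. Of 92 alternative values for 11 results, 67 stayed within the interval of the reported share or within 1.5 times the reported count, 24 moved and 1 reversed. The ΔCTCF/ΔMAZ difference kept its sign under all 10 alternatives, from 2.01 to 6.19 points, but its interval included 0 with −log10 q of at least 5 (−0.958 to 5.26) and with lists of equal length (4.35 points, −3.61 to 12.2), and no interval was computed at the lower depth. The ΔMAZ difference, whose interval included 0, was clear of 0 with 50% reciprocal overlap (2.5 points, 0.456 to 4.83) and with starts within 2.5 kb (2.14 points, 0.150 to 4.24). No paired analysis was possible because no group held a further list to pair. Wherever no peak was called, a weak signal below the limit of that list cannot be told from none.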
